A study of Mus musculus with 8 samples.

Results

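The 8 hippocampal arrays of this series fall on both sides of 0 along the first principal component of their gene-centred values, and the report describes the genes that differ between those sides. The sets were chosen by measured values and not by the labels. Arrays with a positive score (normal mice 1, 3 and 4 and mutant mouse 3) form one set of 4. Arrays with a negative score (normal mouse 2 and mutant mice 1, 2 and 4) form the other set of 4, so all 8 arrays of the series are included. Because the values that defined the sets are the values compared, every difference between the sets is given as a description with no test.

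Each array held RNA from the hippocampus of the right hemisphere of 1 mouse of the B6.C-H2-Kbm1/ByBir strain. Normal mice were Gusb mps/+, so they also carried 1 copy of the mps allele, and mutant mice were Gusb mps/mps. Gusb encodes the lysosomal enzyme beta-glucuronidase, and its loss models mucopolysaccharidosis VII, a lysosomal storage disease. Normals 1 to 4 were a female of 38.3 weeks, a male of 25.6 weeks, a male of 19.6 weeks and a female of 14.6 weeks. Mutants 1 to 4 were a female of 38.3 weeks, a male of 25.6 weeks, a male of 25.6 weeks and a female of 19.6 weeks. Numbers only name the animals, in the order of the submitters' list. Normal 1 and mutant 1 share their age and sex, as do normal 2, mutant 2 and mutant 3. The labels do not say whether any of these animals were pairs. Normal and mutant mice were kept together per the labels, the series design states that no replicates were made, and each array held a different animal.

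Telencephalon and diencephalon are neighbouring divisions of the forebrain. The telencephalon forms the cortex, the hippocampus and the striatum, and its excitatory neurons depend on factors such as Neurod6 and Bcl11b. The diencephalon forms the thalamus, the habenula and the hypothalamus. Its relay neurons use the vesicular glutamate transporter Slc17a6 and factors such as Tcf7l2, whereas hypothalamic neurons are known for secreted peptides such as vasopressin and orexin. The hippocampus lies over the thalamus and borders the lateral ventricle.

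The first component held 35.5% of the variance over 12393 genes and the second 23.7%. First-component scores were 42.3 for normal 4, 25.4 for normal 3, 17.5 for mutant 3 and 4.81 for normal 1. They were -18.2 for normal 2, -19.6 for mutant 1, -25.7 for mutant 2 and -26.6 for mutant 4. Normal 1 was therefore just inside the positive set, and normal 2 was the nearest array on the negative side. Normal 1 had the highest second-component score, 46.9, and the plot of component scores shows it apart from the other 7. Its 3 prime minus 5 prime value over the actin and Gapdh control probe sets, a measure of RNA quality, was 3.58 on the log2 scale against 0.222 to 0.752 in the other arrays. The part of RNA quality in the results was not tested, and values without normal 1 are given for the gene counts and for several genes and lists.

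**Figure D1:**
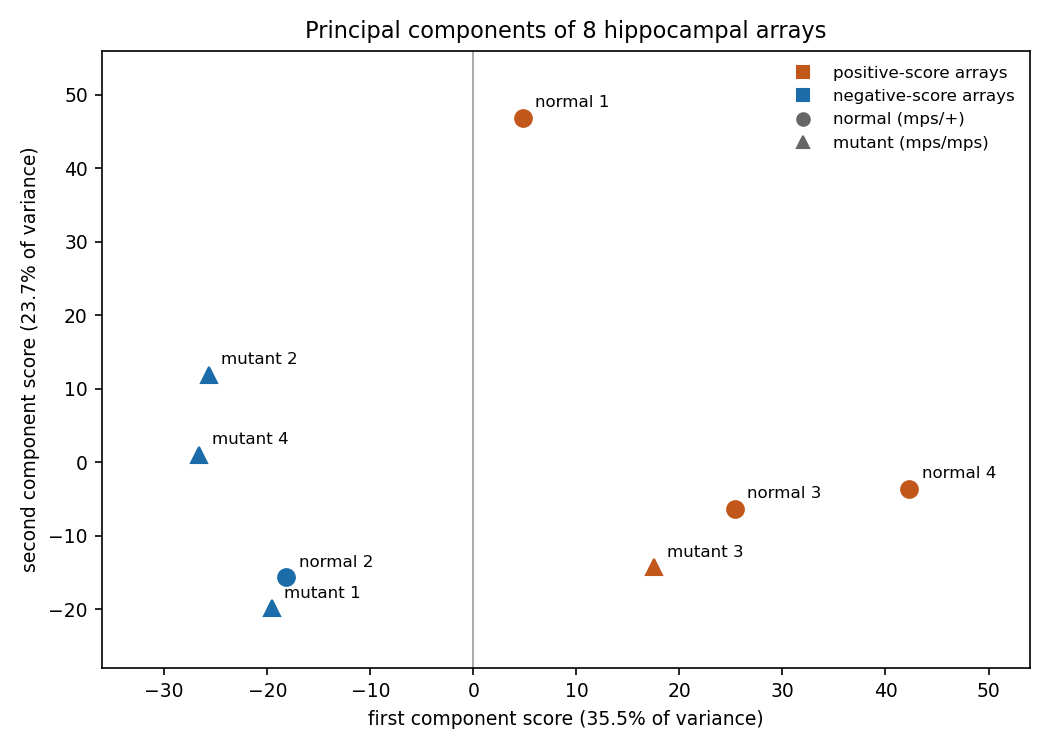
First-component score (x axis, no unit, share of variance in the label) against second-component score (y axis) of the 8 arrays, with 1 point per mouse, colour for the set and shape for the genotype. Normal 1 lies at 4.81 on the x axis and 46.9 on the y axis, away from the other arrays of both sets.

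The labelled groups were spread over both sets. The positive set held 1 mutant and the negative set 3 (two-sided Fisher's exact p = 0.486), and both held 2 females (two-sided Fisher's exact p = 1). Mean age was 24.5 weeks in the positive set and 27.3 weeks in the negative set (two-sided exact permutation p = 0.829 over 70 arrangements). Animal numbers in the sample titles fall into a lower and a higher series, a split made here and not a label. Normals 3 and 4 and mutants 3 and 4 are in the higher series. Of these arrays, 3 were in the positive and 1 in the negative set (two-sided Fisher's exact p = 0.486). With 4 arrays against 4 the smallest p that these permutations allow is 0.0286.

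The working markers of telencephalon and diencephalon did not separate the sets cleanly. Neurod6, a telencephalic neuronal transcription factor, had log2 values of 2.75, 6.59, 6.86 and 8.68 in normals 1, 3 and 4 and mutant 3. It had values of 4.62, 6.41, 2.70 and 2.42 in normal 2 and mutants 1, 2 and 4. Normal 1 was thus under the highest bacterial control probe set of 3.72 although its score is positive, and mutant 1 was close to normals 3 and 4. Slc17a6 had values of 10.41, 8.93, 8.33 and 8.41 in the positive set and 10.69, 10.38, 11.45 and 11.28 in the negative set, so normal 1 lay above mutant 1. A further Slc17a6 probe set did separate the sets, from 7.35 to 8.03 against 8.98 to 10.22. Mean differences, positive minus negative set with genotype as a term, were 2.81 ± 1.89 (SE) for Neurod6 and -2.05 ± 0.68 (SE) for Slc17a6. Without normal 1 they were 3.55 and -2.36. The sets are therefore called here by the sign of their score, and neither is named for a brain region.

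For each gene the set difference is the mean of 2 within-genotype differences, that of normals 1, 3 and 4 over normal 2 and that of mutant 3 over mutants 1, 2 and 4. Normal 2 and mutant 3 therefore carry more weight than the other arrays. A gene was counted as separating the sets when its difference was at least 1 on the log2 scale and the 4 and 4 arrays did not overlap. By this rule 136 of 12393 genes (1.10%) were higher in the positive set and 66 (0.533%) were higher in the negative set. These shares are the background for all counts below and, since they come from the values that made the sets, nothing is read from them. Of these 202 genes, 138 differed by at least 1 in normals and in mutants taken separately. Without normal 1 the counts were 195 and 150, and 125 of the 136 and 61 of the 66 genes were also counted then. Without mutant 3 they were 210 and 102, and without mutant 1 the second count was 110. A rule of no overlap is easier to meet with fewer arrays. Leaving out any single array raised both counts, to 143 to 210 and 72 to 150. Of the 202 genes, 20 had at least 1 array of their lower set under the highest bacterial control probe set of 3.72, a level that stands for background here, and 6 had all 4 there. In RNA of bulk tissue, fewer cells of a type and less RNA per cell cannot be told apart.

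**Figure D2:**
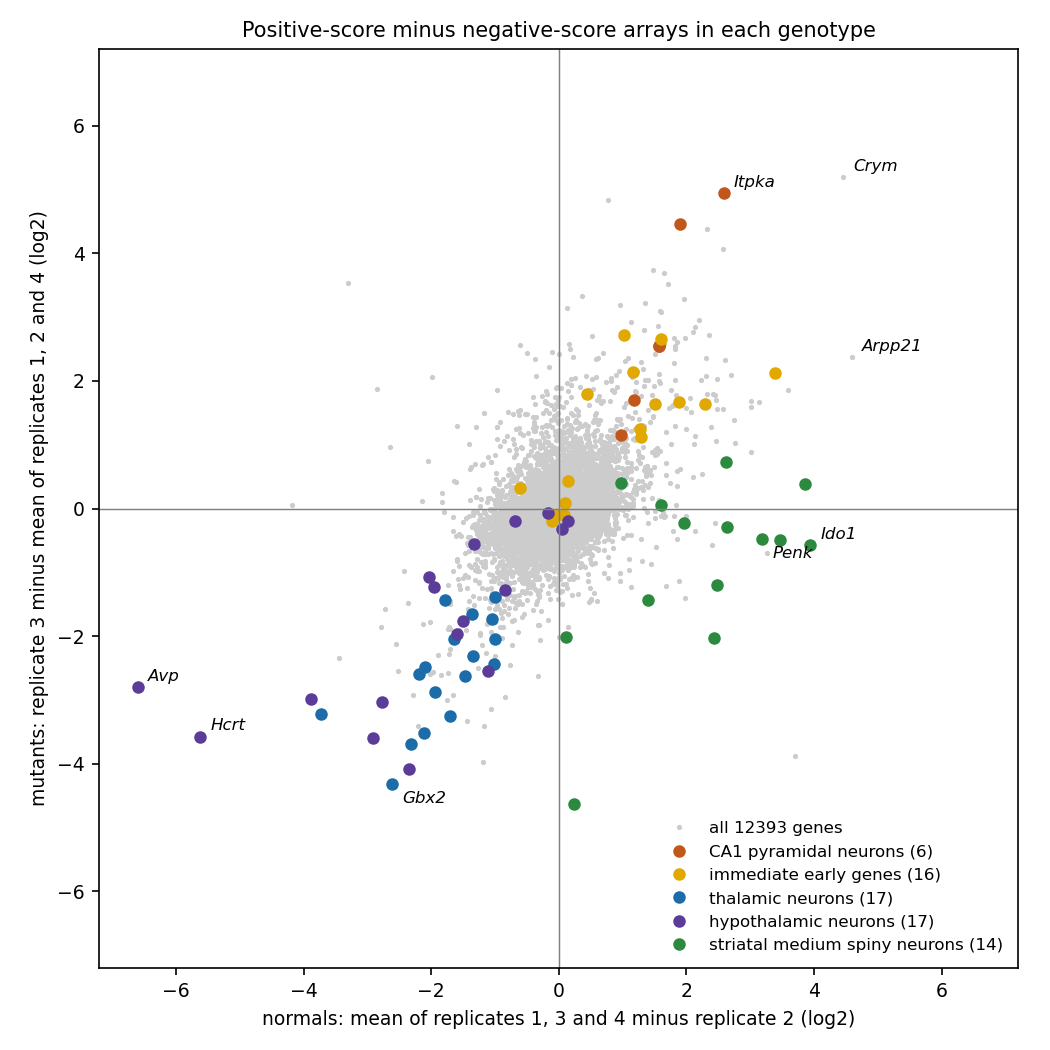
Set difference in normals (x axis, log2, normals 1, 3 and 4 minus normal 2) against that in mutants (y axis, log2, mutant 3 minus mutants 1, 2 and 4), with 1 point per gene and colours for 5 gene lists. CA1 and immediate early genes lie mostly at the upper right, thalamic and hypothalamic genes at the lower left, and striatal genes to the right in normals with most near or under 0 in mutants.

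The 12 leading genes of the positive set were of several kinds, and 2 of them, Itpka and Arpp21, were on the list of glutamatergic neurons. Crym, which encodes the thyroid hormone binding protein mu-crystallin, had log2 values of 10.16, 9.44, 10.84 and 10.79 in normals 1, 3 and 4 and mutant 3. Its values were 5.70, 7.51, 4.72 and 4.54 in normal 2 and mutants 1, 2 and 4. No array of one set reached the other, and the difference was 4.82 ± 0.95 (SE), or 28.3-fold. Itpka, an inositol trisphosphate kinase of dendritic spines, had means of 8.32 ± 0.67 and 4.61 ± 1.35 (SD, n = 4 each), and a difference of 3.77 ± 0.95 (SE). Its values in mutants 2 and 4, 3.48 and 3.44, were under the bacterial control level. Arpp21, a cyclic AMP regulated phosphoprotein of forebrain neurons, had means of 10.51 ± 0.88 and 6.72 ± 0.27 (SD, n = 4 each), an 11.2-fold difference. Mutant 3, at 9.21, was the lowest positive-score array for Arpp21, whereas for Itpka it was the highest at 9.28.

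Of 15 measured genes of cortical and hippocampal glutamatergic neurons, 5 separated the sets, all higher in the positive set. The median difference of the 15 genes was 1.63 against -0.03 for all genes, and 1.93 without normal 1. Besides Itpka and Arpp21 these were the transcription factor Mef2c (difference 1.81), the kinase Ptk2b (1.63) and the Rac regulator Chn1 (1.47). Mean levels of the list were 8.22, 9.24, 8.59 and 9.51 in the positive set and 7.50, 7.83, 7.11 and 7.03 in the negative set. Normal 1 and mutant 1 were the nearest arrays, 0.39 apart. Cck, a peptide of cortical neurons, went slightly the other way with a difference of -0.17, and Rasgrf1 differed by 0.12.

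Among hippocampal fields the pattern was clearest for CA1, the output field of the hippocampus proper. Of 6 measured CA1 genes, 4 separated the sets, and the median difference was 2.06. The POU factor Pou3f1 had values of 9.44, 9.20, 9.07 and 9.42 in the positive set and 7.67, 6.76, 6.87 and 6.99 in the negative set. Its 4 positive-score arrays lay within a narrow range far above the others. The Wnt modulator Dkk3 differed by 2.06 and the endoplasmic reticulum protein Wfs1 by 1.06. Ccn3, a matricellular protein, had 7.87, 8.97 and 9.73 in normals 3 and 4 and mutant 3, but 5.25 in normal 1, which lay within the 5.18 to 5.46 of the negative set. The difference of Ccn3 was 3.18 with normal 1 and 3.75 without it.

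Median differences of the other hippocampal fields were nearer to 0. For 6 CA2 and CA3 genes the median difference was 0.05, or -0.08 without normal 1, and list means were 7.95 to 8.00 in the positive and 7.75 to 8.03 in the negative set. Members went both ways: Rgs14, a signalling regulator of CA2, was higher in the positive set by 1.70, and Cacng5, an AMPA receptor auxiliary subunit, was higher in the negative set, with a difference of -1.27. Of 9 genes of dentate granule neurons, 7 were higher in the positive set, with a median difference of 0.84, or 0.96 without normal 1. The dentate list mean was 6.25 in mutant 3, 5.17 in mutant 1 and 4.57 to 5.02 in the other 6 arrays. The desmosomal gene Dsp, which marks granule cells, had 7.93 in mutant 3, 6.92 in mutant 1 and 5.86 in normal 3 against 3.25 to 4.21 elsewhere. The dentate means thus stood out in single arrays of both sets. Of the 9 genes only the channel gene Trpc6 separated the sets, with all 4 negative-score arrays, at 2.52 to 3.70, under the bacterial control level.

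Telencephalic transcription factors were higher in the positive set in 14 of 19 measured genes, and 4 separated the sets. The median difference was 1.31. Bcl11b, a zinc finger factor of deep-layer cortical, CA1 and striatal neurons, had 7.62, 9.35, 8.32 and 8.81 in the positive set. It had 5.85, 5.18, 4.43 and 4.62 in the negative set, a difference of 3.33 ± 0.59 (SE). The TALE factor Meis2 differed by 2.06, and the repressor Zbtb18 by 1.31, and the related zinc finger factor Bcl11a had means of 8.47 ± 0.57 and 7.10 ± 0.51 (SD, n = 4 each). Fezf2, a factor of corticofugal neurons, had 4.44 in normal 1 against 4.58 in mutant 1 and did not separate. Isl1, a factor of striatal and basal forebrain neurons, went the other way with 1 array apart: it had 3.27 in mutant 3 and 7.44 to 8.88 in the other 7.

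**Figure D3:**
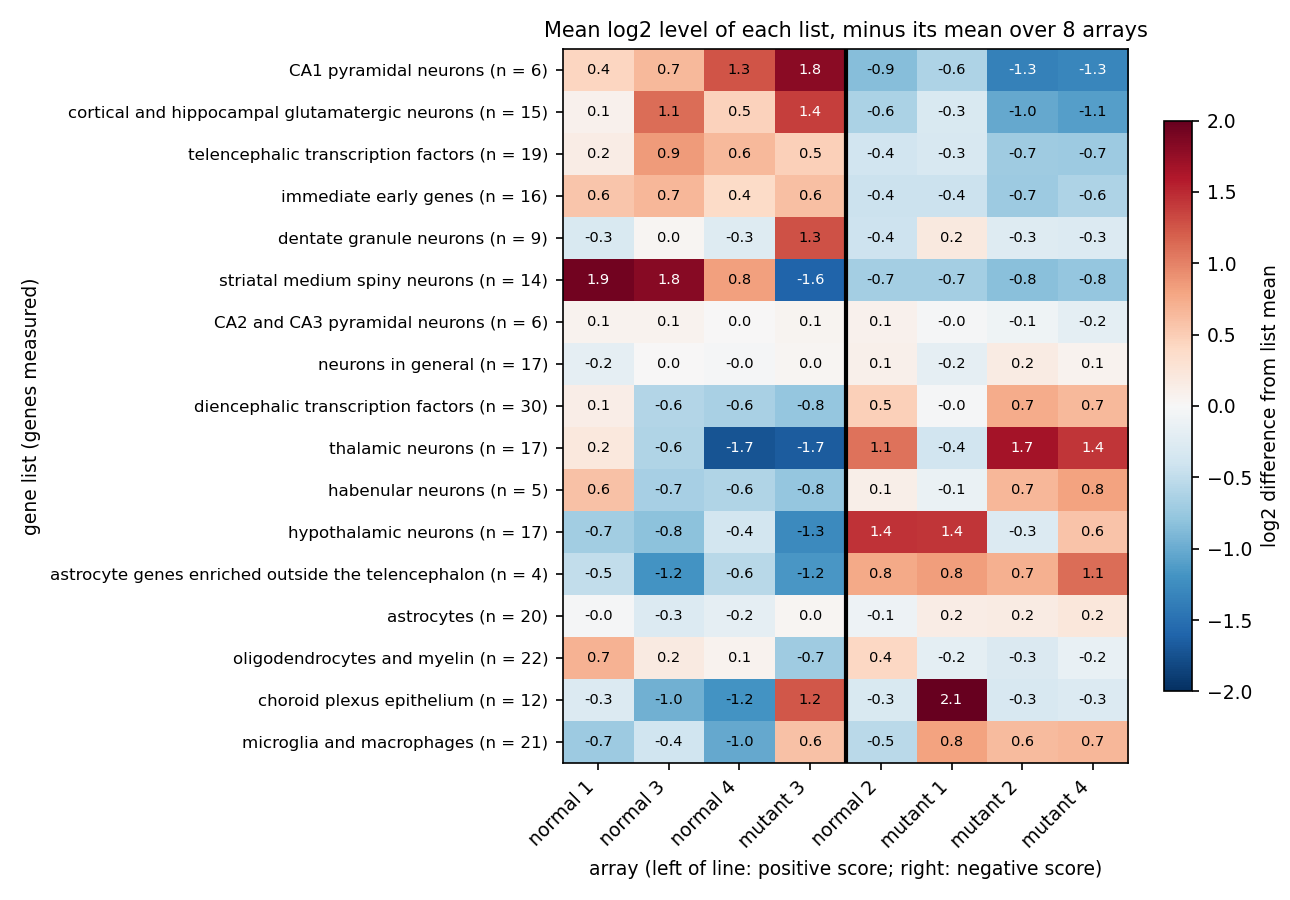
Mean log2 level of 17 gene lists (rows, with genes measured) in each array (columns), shown as the difference from the mean of that list over the 8 arrays, with red for higher and blue for lower. CA1 and immediate early genes split at the line between the sets, striatal genes are high in normals 1, 3 and 4 alone, and choroid plexus genes are high in mutants 1 and 3.

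Immediate early genes, which neurons switch on within minutes of activity, were also higher in the positive set. Of 16 measured genes 7 separated the sets, all in that direction, and the median difference was 1.23. Egr2, a zinc finger factor, had 8.43, 7.44, 6.85 and 5.80 in the positive set and 4.18, 3.98, 3.83 and 3.22 in the negative set, a difference of 2.76 ± 0.54 (SE), with mutant 4 under the bacterial control level. Arc, which acts at the synapse in AMPA receptor removal, had 8.57, 8.71, 7.58 and 8.70 against 6.68, 6.37, 5.69 and 6.08. The synaptic scaffold Homer1 differed by 1.96, and Egr1, Nr4a1, Egr4 and Fosb by 1.20 to 1.77. List means were 7.04 to 7.32 in the positive and 5.93 to 6.23 in the negative set, so normal 1, at 7.22, was here a typical array of its set. Fos itself did not follow, with means of 9.37 ± 0.33 and 9.20 ± 0.23 (SD, n = 4 each), nor did Egr3, whose difference was -0.15.

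Promoter sequences are shown for 4 of the genes that carry these differences, because immediate early genes are controlled through short motifs next to their start sites. Each is the 250 bases before a RefSeq start in GRCm38.p6, written 5 prime to 3 prime on the gene's strand, with motif matches in capitals. RefSeq promoters were used for 10 of the 12 leading genes in each direction and for 13 of the 17 listed immediate early genes. Promoters of 1 chromosome were left out for these genes, and Egr1 was not among the 13. For Egr2 (chr10:67537316-67537565, plus strand, 1 of several starts) the capitals mark a CArG box, the serum response factor motif. For Nr4a1 (chr15:101266596-101266845, plus strand) and Baiap2 (chr11:119942842-119943091, plus strand) they mark the EGR motif GCGGGGGCG on either strand, once in Nr4a1 and 3 times in Baiap2. For the hypothalamic peptide gene Cartpt (chr13:99900684-99900933, minus strand) they mark the cyclic AMP response element TGACGTCA and, as CATCTG, the E-box CAGATG on the other strand.
Egr2: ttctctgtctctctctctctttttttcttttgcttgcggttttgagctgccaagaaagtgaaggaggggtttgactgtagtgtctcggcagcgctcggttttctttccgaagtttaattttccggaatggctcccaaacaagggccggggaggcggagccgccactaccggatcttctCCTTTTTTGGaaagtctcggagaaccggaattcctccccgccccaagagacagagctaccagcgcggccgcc
Nr4a1: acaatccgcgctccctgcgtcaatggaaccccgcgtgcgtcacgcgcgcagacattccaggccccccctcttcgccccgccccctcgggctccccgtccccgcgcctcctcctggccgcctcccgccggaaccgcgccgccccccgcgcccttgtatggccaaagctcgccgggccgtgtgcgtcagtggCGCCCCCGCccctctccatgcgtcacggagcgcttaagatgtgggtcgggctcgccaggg
Baiap2: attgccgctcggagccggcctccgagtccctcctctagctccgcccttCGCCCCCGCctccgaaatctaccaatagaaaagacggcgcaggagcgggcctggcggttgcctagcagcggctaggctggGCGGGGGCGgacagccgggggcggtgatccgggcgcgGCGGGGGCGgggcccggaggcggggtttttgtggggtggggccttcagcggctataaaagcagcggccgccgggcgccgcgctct
Cartpt: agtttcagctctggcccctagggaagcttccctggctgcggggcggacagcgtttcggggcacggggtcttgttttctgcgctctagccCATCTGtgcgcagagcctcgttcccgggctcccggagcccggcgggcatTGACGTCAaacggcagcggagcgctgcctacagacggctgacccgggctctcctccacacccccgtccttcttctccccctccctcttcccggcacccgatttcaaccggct

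Over 32851 RefSeq mouse promoters of this length, searched on both strands, 1.47% held the CArG box, 2.57% the EGR motif, 1.55% the cyclic AMP response element and 14.4% the E-box. The TCF/LEF motif TCAAAG was also searched and was in 13.8%. Counted by gene, with a match at any start of the gene, the shares over 27025 genes were 1.62% for the CArG box, 2.93% for the EGR motif, 16.3% for the E-box and 15.8% for the TCF/LEF motif. For the cyclic AMP response element the share by gene was 1.77%. Of the 13 immediate early genes, 1 held the CArG box, 3 the EGR motif, 1 the cyclic AMP response element and 1 the TCF/LEF motif. The CArG box was in 1 of the 10 leading genes of each set, Egr2 and Cited1. So was the EGR motif, in Baiap2 and Cited1. The cyclic AMP response element was in 1 leading gene of the negative set, Cartpt. The E-box was in 2 of the 10 leading genes of the positive set and 4 of the 10 of the negative set, and the TCF/LEF motif in 6 and 1. A match describes letters in these windows only.

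The further leading genes of the positive set included 2 that act on the actin cytoskeleton, Baiap2 and Tiam2. Baiap2, the scaffold IRSp53 of dendritic spines, had 9.81, 9.15, 8.62 and 8.93 in the positive set and 6.84, 7.24, 5.65 and 5.74 in the negative set, a 5.80-fold difference. All 3 further probe sets of Baiap2 also separated the sets. Tiam2, an exchange factor for Rac, had means of 8.58 ± 0.68 and 5.63 ± 0.30 (SD, n = 4 each), a 6.65-fold difference. Lamp5, a membrane protein of cortical and hippocampal neurons, had means of 10.26 ± 0.38 and 7.43 ± 0.80 (SD, n = 4 each). Col19a1, a collagen of interneurons and hippocampal neurons, differed by 2.62 on its brightest probe set, with 2 negative-score arrays under the bacterial control level, but by 0.05 on another. The receptor kinase Kit differed by 2.62 and the ankyrin repeat gene Sowaha by 2.58. Over the 24 leading genes, 7 had further probe sets, and all 11 of these went in the same direction, 9 without overlap.

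Among ion channel genes single members differed while lists did not shift as a whole. The potassium channel Kcnq5, which carries the M current, had 7.43, 6.80, 6.75 and 6.30 against 3.86, 4.77, 4.90 and 4.22, a 5.30-fold difference. Over 40 potassium and HCN channel genes the median difference was 0.11, with 3 separating genes higher in the positive set and 1, Kcnh2, higher in the negative set. T-type calcium channel genes went opposite ways. Cacna1h was higher in the positive set by 1.52, and Cacna1g, the T-type channel of thalamic relay neurons, had a difference of -1.39 with overlapping arrays. Ppp3ca, the calcineurin catalytic subunit, had values in narrow ranges, 12.38 to 12.50 in the positive set and 11.31 to 11.53 in the negative set. Of 15 glutamate receptor subunits only Gria2 separated the sets, by 1.43, and of 12 GABA-A receptor subunits and 35 acetylcholine, monoamine and opioid receptors none did.

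Adhesion and guidance genes contributed 6 separating members of 50 measured, all higher in the positive set, with a list median of 0.18. The cadherin Cdh9 had 8.00, 8.03, 7.91 and 7.81 against 5.75, 6.66, 5.26 and 5.48. The secreted semaphorin Sema3e differed by 2.11, the ligand Efnb2 by 1.78 and Sema3a by 1.56. The semaphorin receptor Plxnd1 and the ephrin receptor Epha7 differed by 1.31 and 1.29.

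Genes of inhibitory neurons went both ways. Vip, the peptide of one interneuron class, had 5.43, 8.80, 7.95 and 8.75 in the positive set and 5.07, 5.02, 3.81 and 4.24 in the negative set. Normal 1 lay only 0.36 above normal 2, so the separation of Vip rests on a narrow gap. Without normal 1 the difference of Vip was 3.88. Lhx6, a factor of interneurons from the medial ganglionic eminence, was higher in the positive set by 2.08 and Reln by 1.69. Calb2, the calcium-binding protein calretinin, was higher in the negative set, with means of 8.87 ± 0.87 and 11.14 ± 0.43 (SD, n = 4 each). The median over all 17 inhibitory genes was 0.33, and the vesicular GABA transporter Slc32a1 differed by -0.13.

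Striatal genes were high in the positive-score normals but not in mutant 3. Mean levels of 14 genes of striatal medium spiny neurons were 9.79, 9.69 and 8.70 in normals 1, 3 and 4 and 6.26 in mutant 3. The 4 negative-score arrays had 7.03 to 7.19. The median difference was 2.46 in normals and -0.49 in mutants, and the value of 0.85 over both genotypes describes neither. Penk, the enkephalin precursor, had 12.44, 12.13 and 11.82 in normals 1, 3 and 4, 7.64 in mutant 3 and 7.24 to 9.05 in the negative set. Rgs9 had 10.25, 10.96 and 9.90 in the same normals and 7.13 in mutant 3, within 0.64 of every negative-score array. The dopamine receptor Drd2 had 7.69 to 8.83 in those normals, 3.81 in mutant 3 and 5.40 to 6.08 in the negative set. The difference between genotypes in this contrast was not tested, as it compares 1 mutant and 1 normal array with the others.

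Further genes with opposite directions in the genotypes included markers of other kinds. Rarb and Ido1, both on the striatal list, and Lhx8, a factor of forebrain cholinergic neurons, were high in normals 1, 3 and 4 and not in mutant 3. Lhx8 had 7.56, 5.80 and 8.25 in those normals against 2.37 in mutant 3 and 2.86 to 3.94 in the negative set. Xist and Eif2s3y, which differ between females and males, followed the labelled sex in all 8 arrays. Lcn2, an acute-phase protein, was at 6.84 in normal 2 and 6.23 in mutant 2 against 2.41 to 4.06 elsewhere. The neutrophil genes S100a8 and S100a9 were highest in normal 2, at 6.80 and 7.19.

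Hypothalamic peptides led the negative set. Avp, the precursor of vasopressin, had log2 values of 12.31, 10.29, 7.03 and 8.50 in normal 2 and mutants 1, 2 and 4. It had 5.73, 6.12, 5.29 and 5.80 in the positive set, and the difference was -4.70 ± 1.22 (SE), or 26.0-fold. Hcrt, the orexin precursor of lateral hypothalamic neurons, had 10.35, 9.58 and 9.88 in normal 2 and mutants 1 and 4. Mutant 2 had 4.80, just above the 4.51 to 4.75 of the positive set, so Hcrt was high in 3 of the 4 negative-score arrays. Gal, the galanin precursor, had 8.80, 8.64, 7.85 and 8.13 in the negative set and 4.61 to 6.75 in the positive set, a 9.52-fold difference. Cartpt, a feeding-related peptide precursor whose promoter is printed above, had 9.91, 10.14, 8.28 and 8.92 against 6.07 to 7.53, a 7.50-fold difference.

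All 17 measured hypothalamic genes were lower in the positive set, 5 of them separated the sets, and the median difference was -1.64. List means were 7.34 in normal 2, 7.33 in mutant 1, 6.47 in mutant 4 and 5.62 in mutant 2. They were 4.63 to 5.53 in the positive set. Normal 2 and mutant 1 were thus highest and mutant 2 was close to the positive set. Oxt, the oxytocin precursor, had 10.60 and 10.97 in normal 2 and mutant 1, and 9.12 in mutant 4, while mutant 2 lay within the 6.05 to 7.21 of the positive set. The transcription factors Sim1, Otp and Nkx2-1 of the same list differed by -0.13, -0.12 and -0.03. Of 28 neuropeptide genes, 5 separated the sets with higher levels in the negative set and 1, Vip, with a higher level in the positive set.

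Thalamic genes were lower in the positive set in all 17 measured members, with a median difference of -2.05, but only Prkcd separated the sets. Prkcd, a protein kinase C of relay neurons, had 9.43, 9.51, 7.46 and 6.86 in the positive set and 10.91, 9.82, 10.69 and 10.62 in the negative set. List means were 9.41 in mutant 2, 9.18 in mutant 4, 8.83 in normal 2 and 7.37 in mutant 1. In the positive set they were 7.97 in normal 1, 7.14 in normal 3, 6.02 in normal 4 and 6.09 in mutant 3. Normal 1 was therefore above mutant 1, and the order of arrays differed from that of the hypothalamic genes, for which mutant 2 was the lowest of its set. Without normal 1 the thalamic median was -2.36.

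Transcription factors of the thalamus followed the same arrays. Gbx2 had 7.37, 9.09 and 8.79 in normal 2 and mutants 2 and 4, but 4.52 in mutant 1 and 6.61 in normal 1, against 3.15 to 4.03 in the other 3. Shox2 had 7.67, 7.66 and 7.27 in normal 2 and mutants 2 and 4, and 4.76 in mutant 1. Tcf7l2, a Wnt effector that specifies thalamic neurons, had 9.18, 9.90 and 9.94 in these arrays, 8.88 in normal 1 and 7.55 in mutant 1. These thalamic factors were thus lower in mutant 1, an array with high hypothalamic peptides, than in the rest of its set. Tcf7l2 and Gbx2 in mutant 1 were still above normals 3 and 4 and mutant 3.

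Diencephalic transcription factors were lower in the positive set in 28 of 30 measured genes, and 2 separated the sets. The median difference was -0.92. Irx3, an Iroquois homeobox factor, had 6.86, 6.98, 6.89 and 6.90 in the negative set and 5.79, 4.92, 4.32 and 4.32 in the positive set, a 4.68-fold difference. The negative-score arrays lay within 0.12 of each other, whereas the positive-score arrays spanned 1.47 with normal 1 highest. Zic2 had 4.38 to 6.09 in the negative and 3.51 to 3.92 in the positive set. Nr4a2, also an immediate early gene, was one of the 2 exceptions and was higher in the positive set by 1.57.

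**Figure D4:**
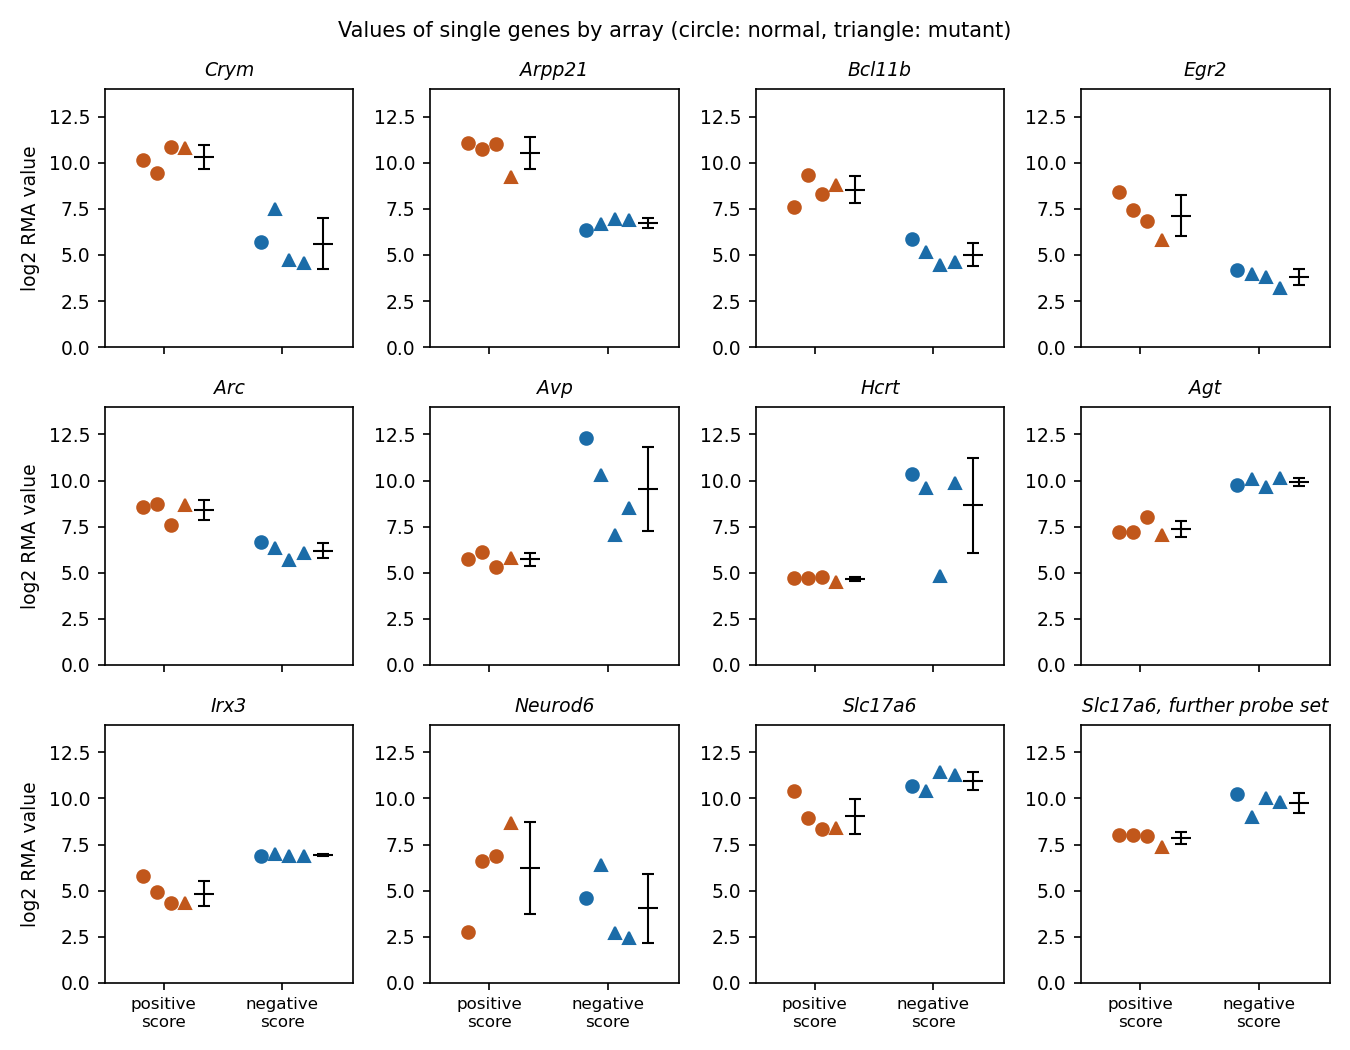
Log2 values (y axis, from 0) of 11 genes in the positive-score and negative-score arrays (x axis), with 1 point per mouse, circles for normals, triangles for mutants, and bars for mean and SD beside them. Crym, Arpp21, Bcl11b, Egr2, Arc, Avp, Hcrt, Agt and Irx3 do not overlap between the sets, Neurod6 does, and Slc17a6 overlaps on the probe set used and not on the further one.

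Genes of astrocytes differed as well. All 4 measured genes that are known to be higher in astrocytes outside the telencephalon separated the sets, with a median difference of -1.69. Agt, the angiotensin precursor, had 9.77, 10.07, 9.67 and 10.13 in the negative set and 7.19, 7.23, 8.04 and 7.04 in the positive set, a 6.07-fold difference. Itih3 differed by -2.16, Sparc by -1.22 and the glycine transporter Slc6a9 by -1.12. Over 20 general astrocyte genes none separated the sets and the median difference was -0.13. Since all 4 regional genes separated the sets by the rule, normal 1 and mutant 1 were necessarily on the sides of their sets.

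The remaining leading genes of the negative set were of several kinds. Cbln1, a secreted synapse organiser, had 10.20, 9.65, 10.22 and 10.36 in the negative set and 8.59, 6.51, 7.15 and 8.22 in the positive set. The transcriptional coactivator Cited1 had means of 7.09 ± 0.62 and 4.82 ± 0.37 (SD, n = 4 each), the glutathione peroxidase Gpx3 9.24 ± 0.59 and 6.89 ± 0.75, and the synuclein Sncg 8.21 ± 0.42 and 6.05 ± 1.11. Sncg had 7.69 in normal 1 and 7.79 in mutant 2, a gap of 0.10. Its arrays separate only narrowly.

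Midbrain and habenular markers were high in particular arrays. The dopamine transporter gene Slc6a3 had 9.23 in mutant 1 and 7.28 in normal 2, and at most 4.69 in the other 6. Th, the rate-limiting enzyme of dopamine synthesis, had 9.71 in mutant 1, 7.94 in normal 2 and 7.48 in mutant 4. Over 18 midbrain and hindbrain genes the median difference was -0.20, and 1 gene, Foxa1, separated the sets, although mutant 1, at 5.23, was the only array above the bacterial control level for it. Tac2, a tachykinin of the habenula and other regions, had 9.62 in normal 1, inside the 8.08 to 9.98 of the negative set, and 5.79 to 6.59 in the other positive-score arrays. The mean of 5 habenular genes in normal 1 was 5.70, and in the rest of its set it was 4.33 to 4.51.

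Markers of other cell types were compared beside these groups. General neuronal genes had a median difference of -0.00 over 17 genes, with list means of 9.81 to 10.15 over the 8 arrays. Choroid plexus genes had list means of 7.82 in mutant 1 and 6.97 in mutant 3, and of 4.53 to 5.46 elsewhere. Folr1, a folate receptor of that epithelium, had 9.55 in mutant 1, 7.85 in mutant 3 and at most 5.73 in any other array. These 2 arrays belong to different sets, and the choroid plexus median difference was 0.07 over 12 genes. Ependymal genes were higher in the negative set, with list means of 5.43 to 6.23 against 4.99 to 5.34 and a median difference of -0.58 over 6 genes. The only separating gene of that list, Hdc (difference -1.06), is also on the hypothalamic list and is counted there too. Myelin genes had a median difference of -0.28 over 22 genes, with the highest mean in normal 1, 9.71, and the lowest in mutant 3, 8.30. Medians were -0.20 for 21 microglia and macrophage genes, -0.15 for 17 endothelial genes, 0.20 for 17 meningeal and perivascular genes and -0.31 for 5 red blood cell genes, and none of these genes separated the sets. The part of these cell types in the set differences was not tested.

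Of the 202 separating genes, 54 were on one of the 33 gene lists and 148 were on none. The lists held 508 distinct measured genes, so 10.6% of the listed genes separated the sets. The lists were drawn up with earlier results of these data known, and that share is a description.

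Genotype is given by the labels and was tested with limma, with the set as a term in the model. The set was read from the same values, which the p-values of this fit do not take into account. At a Benjamini-Hochberg adjusted p under 0.05, 8 of 12393 genes (0.0646%) were higher in mutants and 0 were lower. At an unadjusted p under 0.05, 343 genes were higher and 190 lower. Without the set in the model, 12 genes were higher (0.0968%) and 1 was lower (0.00807%), and the 8 genes of the first fit were among the 12. The lower gene was Lpar1, a lysophosphatidic acid receptor of oligodendrocytes, with an adjusted limma p of 0.0111 without the set and 0.0583 with it. Gene counts with the set were 1 to 15 when single arrays were left out, so the number called depends on single animals: it was 15 without normal 1, 1 without normal 2, 4 without normal 3 and 2 without any one of the mutants. With a further term it was 2 for sex, 3 for age and 3 for the series of animal numbers, and it was 22 with array weights and 5 without dim genes.

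The genes higher in mutants were mostly genes of microglia and macrophages. Gpnmb, a lysosomal and membrane glycoprotein, had 3.98 to 4.06 in the 4 normals and 7.30, 7.65, 6.79 and 7.48 in mutants 1 to 4. Mutants lay above normals in both sets, by 3.13 ± 0.18 (SE) with a limma adjusted p of 0.00208. The cystatin Cst7 was higher by 3.07 ± 0.19 (SE; limma adjusted p = 0.0021) and the lectin receptor Clec7a by 3.31 ± 0.31 (SE; limma adjusted p = 0.0192). The lysozyme Lyz2, the lysosomal protein Cd68, Mpeg1 and Cd84 were higher by 1.33 to 2.64. Gfap, the intermediate filament of reactive astrocytes, was higher by 2.31 ± 0.26 (SE; limma adjusted p = 0.0407). Without each array in turn Gpnmb passed the threshold in 8 of 8 fits and Cst7 in 7, Clec7a and Mpeg1 in 3, and Lyz2, Cd68, Cd84 and Gfap in 2. Of 21 microglia and macrophage genes 6 were called, and the median change of the list was 1.13 with the set in the model.

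**Figure D5:**
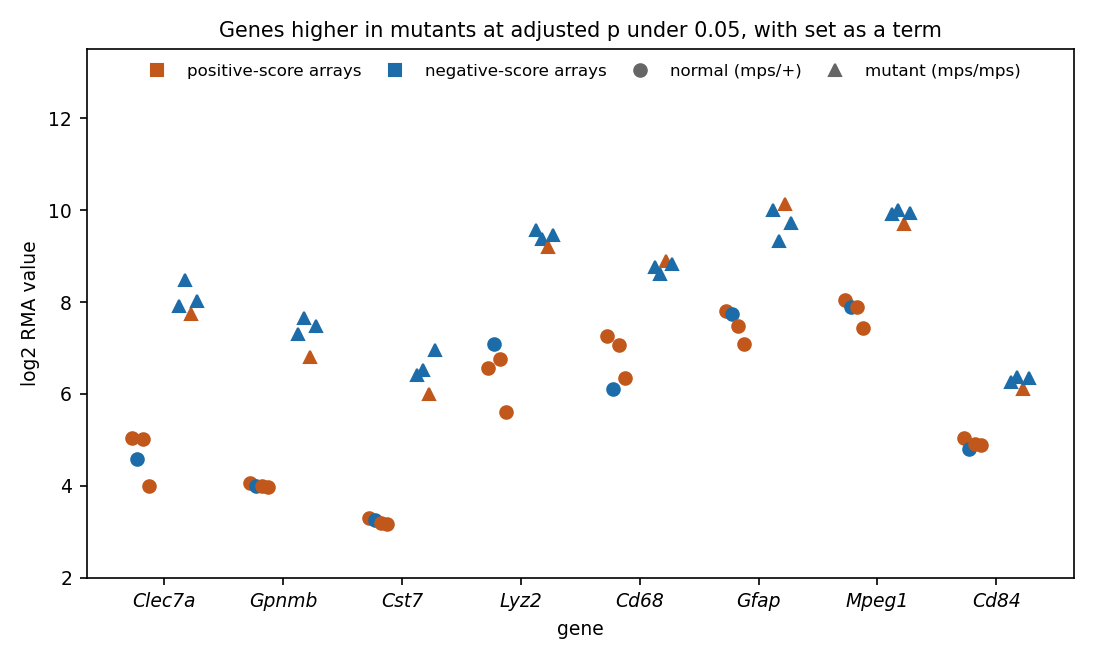
Log2 values (y axis) of the 8 genes higher in mutants at adjusted p under 0.05 (x axis), with 1 point per mouse, circles for normals, triangles for mutants and colours for the sets. For every gene shown the 4 mutants lie above the 4 normals, and the positive-score mutant lies close to the other 3.

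No regional gene passed the genotype test in either model. None of the measured CA1, thalamic, hypothalamic, striatal or dentate genes had an adjusted limma p under 0.05. Several median changes, mutant minus normal, nevertheless changed sign with the set term. For the cortical and hippocampal glutamatergic list the median was 0.25 with the set and -0.60 without it. Others kept their sign: the striatal median was -1.58 with the set and -1.67 without it, and the dentate median 0.94 and 0.52. The change of Crym was 0.27 with the set (limma adjusted p = 1) and -2.14 without it (limma adjusted p = 0.892). The change of Slc17a6 was -0.24 with the set (limma adjusted p = 1) and 0.79 without it (limma adjusted p = 0.913). As a check of the labels, a Gusb probe set had 6.56, 5.40, 5.83 and 6.02 in normals 1 to 4 and 4.51, 4.71, 4.36 and 4.62 in mutants. The other Gusb probe set overlapped, with means of 5.77 ± 0.53 in normals and 5.93 ± 0.48 in mutants (SD, n = 4 each).

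Across 22690 probe sets the array medians lay between 6.09 and 6.17. Over probe sets, which are not independent replicates, the correlation of pairs of arrays (Pearson's r) was 0.951 to 0.979 within the positive set, 0.982 to 0.994 within the negative set and 0.959 to 0.981 between them. Normal 1 had 0.977 with mutant 2 and 0.973 with mutant 4, above its 0.951 to 0.964 with the other arrays of its own set. Its values with normal 2 and mutant 1, 0.962 each, lay within that range. The number of animals, 4 per set, limits the precision of every value.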

How the data were processed

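The authors deposited log2 values for each probe set of 1 Affymetrix array per mouse, made with RMA and GCOS 1.4, per the submitters' processing notes. Of 22690 probe sets, 64 were controls, 20380 had 1 gene symbol, 691 several and 1555 none, and 20351 (99.9%) matched a gene. Each of 12393 genes was represented by its probe set with the highest mean (4956 genes had more than 1). Gene-centred values gave the principal components. limma 3.58.1 in R 4.3.3 (lmFit, eBayes) fitted set and genotype together, and only genotype was tested, also without the set, with Benjamini-Hochberg adjustment over all genes. Set differences carry unmoderated standard errors and genotype changes moderated ones. A set call needed a difference of 1 on the log2 scale and no overlap.

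The sets, lists and rules were chosen with earlier results of these data known. The rule named Neurod6, Slc17a6 and Gusb, the 12 largest separating genes per direction (above the highest of 15 bacterial control probe sets, none with a name marking cross-hybridisation), the 4 members of each list with the largest difference, up to 6 genotype genes per direction and 6 genes per direction that opposed between genotypes. Other genes, named to complete a count or as a contrast, were chosen after their values were seen. The fits were tested on simulated data. Alternatives covered probe set choice, dim genes, normalization, array weights, sex, age, animal series and leaving out each array. Promoters came from RefSeq (GRCm38.p6). Figures were drawn with matplotlib 3.10.9 in Python 3.11.15.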

Additional observations from a re-analysis of the deposited data

Results flagged for a closer look

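Single arrays stood apart from the rest of their group in several list means, by the Dixon test at its 95% value. Chance passes this test in about 1 in 20 groups. It was run on every list mean and a few further measures, in normals, in mutants and in both sets. Several flags are thus expected by chance alone. The sets were chosen from the same values, so flags within them are descriptions only. In the positive set normal 4 stood apart for CA2 and CA3 genes (7.948), although that set spanned only 7.948 to 8.0035. There normal 1 stood apart for habenular genes (5.6961), glutamate receptor subunits (6.0367) and the 3 prime minus 5 prime RNA value (3.58). For the RNA value normal 1 also stood apart among normals. In the negative set mutant 1 stood apart for calcium channels (6.4644, lowest), choroid plexus genes (7.822) and ependymal genes (6.2276), and normal 2 for microglia and macrophage genes (7.0804, lowest). Among mutants, mutant 3 stood apart in adhesion and guidance genes (6.5966). Among normals, normal 2 stood apart in neuropeptide genes (8.0745). Normal 2 and mutant 3 are each the only array of their set in their genotype, so the choice of the sets bears on their values. For microglia and macrophage genes all normals had 6.6024 to 7.2285 and all mutants 8.2127 to 8.4194. The flag of normal 2 in that list thus follows the difference between genotypes given above.

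In 4 lists the mean level of the only negative-score normal lay outside the range of the other normals. That of the only positive-score mutant also lay outside the range of the other mutants, and the differences, positive minus negative set, had opposite signs. The values were 2.2081 in normals and -0.8434 in mutants for striatal genes, and 1.1872 and -0.4628 for forebrain cholinergic genes. They were -0.3336 and 0.6117 for meningeal and perivascular genes, and -0.0454 and 0.1595 for CA2 and CA3 genes. Lists that did not meet this rule could also oppose: choroid plexus genes had median differences of -0.40 in normals and 0.81 in mutants. With a single array against the others in each genotype, opposite signs can arise by chance. These differences were not tested.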

How the results depend on the processing

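With a threshold of 0.58 in place of 1, 300 genes were higher in the positive and 236 in the negative set. Leaving out single arrays gave 143 to 210 and 72 to 150 genes. The count of genes higher in mutants with the set as a term was 5 without dim genes, 22 with array weights, 2 with sex, 3 with age and 3 with animal series as a further term, and 1 to 15 without single arrays. The count lower in mutants was 1 with the mean of all probe sets, without the set or with array weights, and 0 to 1 without single arrays. The causes were not tested. No separating gene named here and no list with a median difference of at least 1 in size changed direction. Smaller medians did, in 26 of 527 recomputed values over 12 lists: CA2 and CA3 genes went from 0.05 to -0.08 without normal 1, and striatal genes from 0.85 to -0.49 without normal 2. Medians of gene lists moved by more than the replicate spread in 32 of the 527 recomputed values, and single named genes in 85 of 2298. A genotype fit without the set and without normal 1, chosen after seeing the data, gave 12 higher and 1 lower. Normal 1 changed side of the first component when all probe sets were used, when genes were divided by their SD or centred within genotype, without the listed genes, and without normal 2 or mutant 1. With replicate number, which follows the submitters' order, as a replicate block, chosen after seeing the data (2 residual degrees of freedom), limma called 0 genes higher and 0 lower, with 509 and 213 at an unadjusted p under 0.05. The labels state no pairs. A random block, also chosen after seeing the data, joined animals of equal age, sex and animal series (normal 1 with mutant 1, normal 2 with mutant 2). Mutant 3 has the age and sex of normal 2 but is in the higher series, and was not joined. With this block 7 genes were higher and 0 lower, at a consensus correlation of -0.42.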
